A study of Rattus norvegicus with 6 samples.

Results

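The proteasome genes of rat nucleus pulposus cells, which fill the soft centre of the intervertebral disc, were compared between control cells and cells under cyclic tensile strain. Members were chosen by symbol (Psm, a letter from a to g and a digit), which gave 49 of the 22573 gene rows used. No measured value enters that rule, but the family itself was selected on the strain-against-control FPKM differences of these libraries, which were known from earlier work. Those differences are therefore a description here and support nothing beyond themselves.

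RNA sequencing covered 3 control libraries and 3 libraries of cells stretched for 24 h on a Flexcell device, with an elongation of 18% at 0.2 Hz. The cells were from Sprague Dawley rats, and no label gave an age, a genetic modification or another agent. The text on stretching is the same on all 6 samples, so controls are taken as unstretched only from their class label. The labels do not say whether the replicates are separate animals or cultures, and the p-values may therefore rest on technical spread alone.

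The proteasome is the barrel-shaped protease that degrades proteins tagged with ubiquitin chains. Its core is built of stacked rings of alpha subunits, which form the gate, and beta subunits, of which PSMB5, PSMB6 and PSMB7 carry the cutting sites. A regulatory particle caps the core: its base holds a ring of ATPases that unfold the substrate, and its lid removes the ubiquitin chain. In cells exposed to interferon the cutting subunits can be replaced by PSMB8, PSMB9 and PSMB10, the immunoproteasome subunits, whose peptide products favour loading on MHC class I.

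The 49 members divided by letter and role into 8 alpha genes, 8 beta genes, 3 immunoproteasome genes, 6 base ATPase genes and 11 genes of the lid and of the base without ATPase activity. A further 3 d-letter genes (Psmd5, Psmd9 and Psmd10) encode chaperones that assemble the base, 4 e-letter genes encode activators, Psmf1 encodes an inhibitor and 4 g-letter genes encode chaperones that assemble the core. Psmc3ip matches the pattern but encodes a partner of the PSMC3 protein that works in meiotic recombination, so it is kept apart. A mean of at least 1 FPKM (fragments per transcript length, as a share of a library's mapped total) over the 6 libraries was reached by 47 members, which were tested. The other two were Psma8, the testis alpha subunit, listed at 0 in every library, and Psmb11, the thymus beta subunit, at 0 to 0.0888 FPKM. The means of Psmb11 were 0.0296 FPKM in controls and 0.0307 FPKM under strain.

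Libraries summed to between 332716 and 347117 FPKM in controls and between 309497 and 348238 FPKM under strain, the highest being strain replicate 3. The depth of the libraries is unknown, since FPKM values keep no read totals. Of the markers checked for the labelled cell type, Pax1, Foxf1, Sox9, Acan, Krt8, Cd24, Lgals3 and Ncam1 passed the filter, whereas T, Krt18, Krt19, Car12 and Col2a1 did not. The 13 nucleus pulposus and notochordal markers in the files summed to between 98.1 and 120 FPKM in controls and between 208 and 267 FPKM under strain. Much of this rise came from a single gene, Lgals3, whose group mean went from 42.35 to 134.9 FPKM. Of the 8 tested markers limma called 6 higher and 0 lower. The uncalled ones were Acan, with a log2 fold change of 0.35, and Cd24, with one of -0.27. The 8 macrophage and leukocyte markers summed to between 3.21 and 7.77 FPKM in controls and between 2.08 and 2.23 FPKM under strain, with Cd3e at 0 in every library and Ptprc at no more than 0.0486 FPKM. Most of that sum came from Adgre1 and Cd68, macrophage markers that were both called lower, from 3.71 ± 1.92 to 1.31 ± 0.10 FPKM (limma adjusted p = 0.0299, lost in 6 of 14 alternative fits) and from 1.53 ± 0.42 to 0.63 ± 0.15 FPKM (adjusted p = 0.00885). Both sums move with the group, and their part in the results below was not tested. In such bulk samples fewer cells of a type and less RNA per cell cannot be told apart.

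Among the 47 tested members 12 were lower under strain, 2 were higher and 33 were not called (limma, adjusted p under 0.05 over all tested genes). In the same fit 19.0% of the 10180 tested genes were lower and 16.4% were higher. The 12 lower members were spread unevenly over the complex: 7 of 11 belonged to the lid and non-ATPase base, 2 of 6 to the ATPase ring, 2 of 7 to the alpha ring and 1 of 3 to the base chaperones, against 0 of 7 beta genes and 0 of 3 immunoproteasome genes. The 2 higher members, Psmg1 and Psmg4, are both core assembly chaperones. Whether these groups differ from one another was not tested. All 3 strain libraries lay below all 3 controls in 16 of the 47 members and above them in 2, where 28.0% and 24.0% of all tested genes did so. The median log2 fold change of the 47 members was -0.16, beside -0.01 over all tested genes, and 35 of the 47 had a negative value (31 with quantile, median or TPM scaling).

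These counts depend on strain replicate 3, in which 38 of the 47 tested members had their highest value of the 3 strain libraries, against 50.8% of all tested genes. Without that library 20 members were lower and 2 higher, and the lower share was 42.6% of tested members beside 20.3% of all genes. The lower count was 5 without control replicate 1, strain replicate 1 or strain replicate 2, which is 10.9% of tested members beside 12.8%, 16.8% and 15.2% of all genes. It was 6 without control replicate 3 (12.8% beside 15.4%) and 10 without control replicate 2 (21.3% beside 15.2%). The lower share of the members was thus above that of all genes with the 6 libraries (25.5% beside 19.0%) and below it in 4 of the 6 fits that leave out a library. The spread over groups moved as well. Without strain replicate 3 the lid and non-ATPase base had 9 of 11 lower, the ATPase ring 3 of 6 and the alpha ring 5 of 7. Without control replicate 1, strain replicate 1 or strain replicate 2 these were 4, 0 and 0. They were 7, 0 and 2 without control replicate 2, and 4, 1 and 0 without control replicate 3. Lower calls that remained in all 15 alternative fits were those of Psmd1, Psmd3, Psmd5, Psmd8 and Psmd11, and the higher call that did was that of Psmg1.

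**Figure D1:**
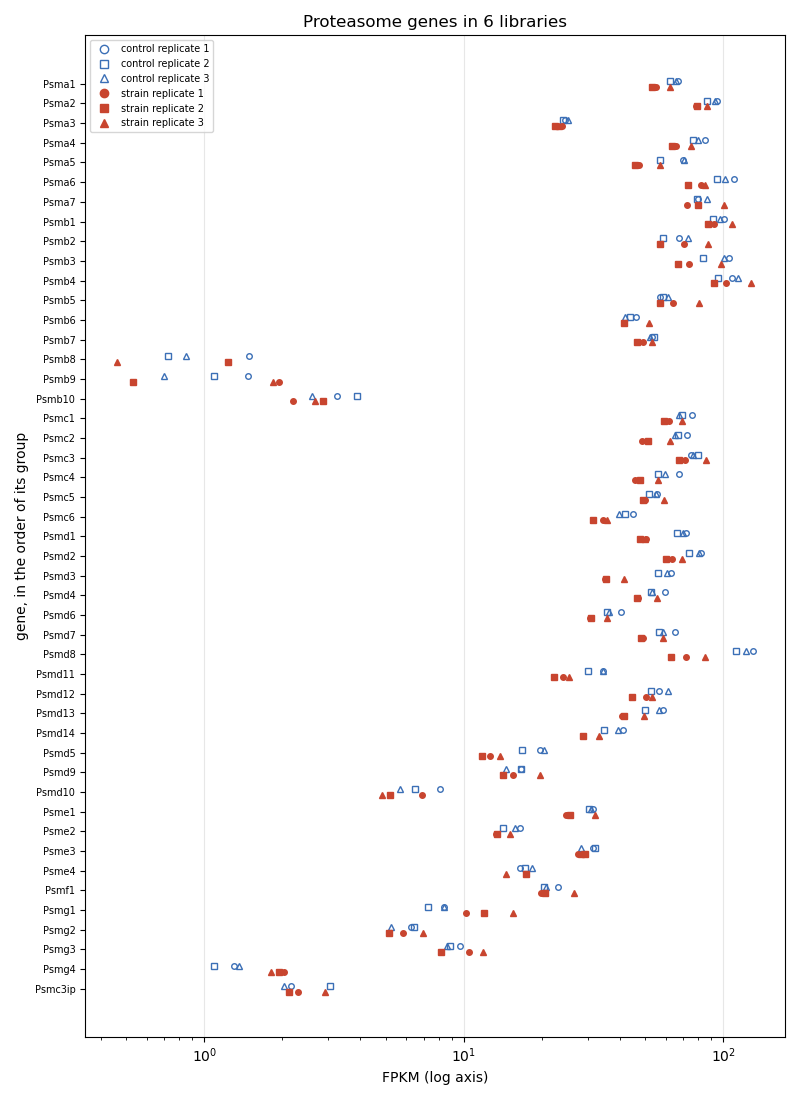
FPKM on a log axis of the 47 tested proteasome genes, 1 row a gene, with 3 control libraries (open blue) and 3 strain libraries (filled red). Structural subunits sit between 22.2 and 130.4 FPKM, the immunoproteasome genes between 0.461 and 3.86 FPKM, and the 3 strain values of Psmd3 and Psmd8 lie below all 3 control values.

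To show what lies upstream of the genes whose calls held best, the 250 bases before the annotated transcription start are given for the 4 lower genes with the largest fold, Psmd8, Psmd3, Psmd5 and Psmd1, for the higher gene Psmg1, and for Psmb10 as an interferon-type promoter. Sequences are from RefSeq on GRCr8, 5′ to 3′ on the strand of the gene. Capitals mark matches on either strand to TGANNNNGC, CCAAT or GAAANNGAA (the core of the interferon-stimulated response element). TGANNNNGC is a loosened form of the core of the antioxidant response element, which NFE2L1 and NFE2L2 bind. Its base after TGA is left free, so a match such as TGAATTTGC in Psmd1 need not be such a core.
Psmd8 (chr1:93608690-93608939, minus strand): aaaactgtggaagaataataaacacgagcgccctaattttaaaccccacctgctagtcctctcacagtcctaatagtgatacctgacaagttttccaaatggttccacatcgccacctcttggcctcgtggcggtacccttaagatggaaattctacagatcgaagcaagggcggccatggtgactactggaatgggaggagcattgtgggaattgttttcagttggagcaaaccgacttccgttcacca
Psmd3 (chr10:84139688-84139937, plus strand): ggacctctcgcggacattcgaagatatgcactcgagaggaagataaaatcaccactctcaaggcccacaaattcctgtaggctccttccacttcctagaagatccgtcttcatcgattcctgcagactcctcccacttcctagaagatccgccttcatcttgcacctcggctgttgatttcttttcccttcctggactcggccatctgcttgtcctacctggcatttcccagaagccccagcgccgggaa
Psmd5 (chr3:38548491-38548740, minus strand): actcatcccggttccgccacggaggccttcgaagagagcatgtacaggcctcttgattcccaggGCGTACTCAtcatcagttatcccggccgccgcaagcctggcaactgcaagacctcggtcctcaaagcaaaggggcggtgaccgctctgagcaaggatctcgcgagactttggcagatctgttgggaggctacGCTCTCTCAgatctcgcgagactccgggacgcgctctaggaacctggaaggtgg
Psmd1 (chr9:94157721-94157970, plus strand): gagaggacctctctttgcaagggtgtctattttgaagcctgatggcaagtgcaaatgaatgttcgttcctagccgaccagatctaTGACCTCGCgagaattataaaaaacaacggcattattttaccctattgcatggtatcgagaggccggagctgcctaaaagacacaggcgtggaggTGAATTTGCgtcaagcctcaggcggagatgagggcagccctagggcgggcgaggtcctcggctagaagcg
Psmg1 (chr11:48755041-48755290, minus strand): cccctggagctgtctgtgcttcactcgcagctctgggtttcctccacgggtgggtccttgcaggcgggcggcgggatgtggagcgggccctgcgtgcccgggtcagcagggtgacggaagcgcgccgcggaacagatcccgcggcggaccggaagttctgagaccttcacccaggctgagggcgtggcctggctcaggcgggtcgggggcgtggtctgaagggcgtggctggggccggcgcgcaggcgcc
Psmb10 (chr19:50743293-50743542, minus strand): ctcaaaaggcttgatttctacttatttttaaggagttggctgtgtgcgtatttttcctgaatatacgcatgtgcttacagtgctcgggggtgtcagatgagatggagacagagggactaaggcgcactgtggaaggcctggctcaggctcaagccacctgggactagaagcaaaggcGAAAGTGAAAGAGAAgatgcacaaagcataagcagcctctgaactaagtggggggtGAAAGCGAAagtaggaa

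Promoters were found by symbol for 44 of the 49 members, and not for Psma7, Psmb11, Psmd6, Psmd12 and Psmd14. Members were counted with a single promoter per gene. The shares of all promoters count every entry, whether or not its gene was tested, so the sets are unlike. TGANNNNGC was present in 18 of the 44 member promoters (40.9%) and in 34.7% of all 33469 promoters of the same length, among them 6 of 11 promoters of lower members, 1 of 2 of higher members and 11 of 30 of members not called. Psmd1 and Psmd5 each held 2 matches, whereas Psmd3, Psmd8 and Psmg1 held none of the 3 motifs in this window. CCAAT was present in 21 of the 44 (47.7%, against 34.0% of all promoters), in 2 of 11 lower members and in 19 of 30 not called. GAAANNGAA was present in 7 of the 44 (15.9%, against 8.12%), namely Psma4, Psmb2, Psmb3, Psmb10, Psmd7, Psmd11 and Psme2, of which only Psmd11 was called. Psmb10 held 3 matches, a pair of them overlapping. CCAAT and TGANNNNGC matches can overlap, as in Psma5, and a match is not evidence of binding.

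The largest log2 fold changes of the members, those of Psmd8 and Psmd3, were in the lid. Next in size were those of the chaperone genes Psmg1 and Psmd5, outside the lid and non-ATPase base group. Psmd8, a lid subunit, stood at 130.4, 112 and 123 FPKM in control replicates 1, 2 and 3 and at 71.9, 62.8 and 85.1 FPKM in strain replicates 1, 2 and 3. Every strain library lay below every control, and the group means were 122 ± 9.14 and 73.3 ± 11.2 FPKM (SD, n = 3 in each group here and below), a 1.66-fold fall. In controls Psmd8 was the most abundant of the 31 tested structural subunits of core, base and lid, while under strain that place went to the beta gene Psmb4. Psmd3, another lid subunit, was at 62.9, 56.3 and 60.6 FPKM in controls and at 35.1, 35.4 and 41.3 FPKM under strain, with no overlap. Its log2 fold change was -0.67 ± 0.10 (SE; limma adjusted p = 0.000926), and that of Psmd8 was -0.73 ± 0.12 (adjusted p = 0.0021).

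Psmd1 encodes a large scaffold protein of the base that carries the ubiquitin receptor ADRM1. It fell 1.41-fold, from 72.0, 66.2 and 69.9 FPKM in controls to 50.2, 47.8 and 49.7 FPKM under strain, and strain replicate 3 did not stand out in it. The other scaffold gene Psmd2, whose product docks shuttle proteins, was at 82.0, 74.0 and 80.4 FPKM in controls and at 63.7, 60.1 and 69.6 FPKM under strain, a 1.22-fold fall. That call was lost in 8 of the 15 alternative fits, among them those without control replicate 1 or 3 or strain replicate 1 or 2. Psmd11, a lid subunit that tightens the contact of the regulatory particle with the core, fell 1.37-fold from 34.3, 30.0 and 34.4 FPKM to 24.2, 22.2 and 25.5 FPKM. It was the least abundant of the 11 genes of this group.

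Psmd14 encodes the metalloprotease of the lid that cuts the ubiquitin chain from the substrate. It was at 41.2, 34.6 and 39.4 FPKM in controls and at 28.9, 28.9 and 33.3 FPKM under strain, a 1.26-fold fall whose call was lost in 6 of 15 alternatives. The lid gene Psmd13 fell 1.25-fold, from 58.4, 50.05 and 56.6 FPKM to 40.8, 41.6 and 49.6 FPKM, with strain replicate 3 just below control replicate 2. It lost its call in 9 of 15 alternatives. The 4 members of the group that were not called were Psmd4, which encodes a ubiquitin receptor, and the lid genes Psmd6, Psmd7 and Psmd12. Their log2 fold changes ran from -0.21 to -0.15 with 95% intervals that reached from -0.44 to 0.08, so falls of the size of the called genes lie partly inside these intervals.

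**Figure D2:**
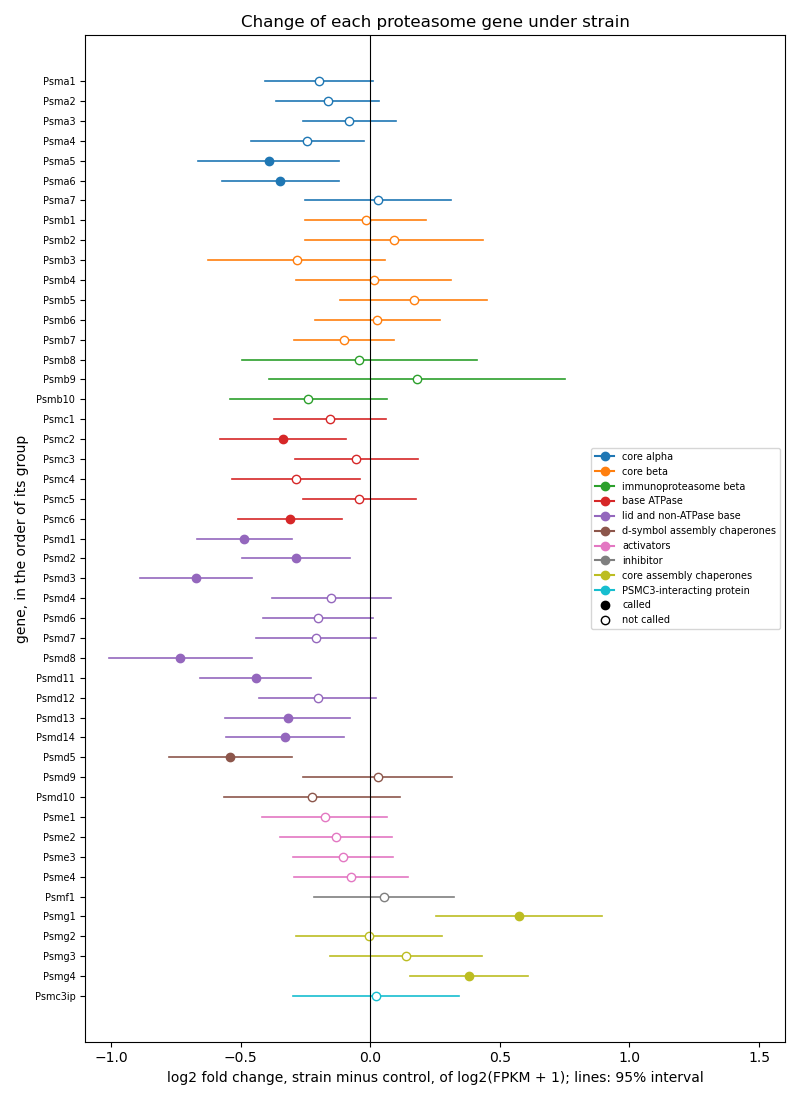
Log2 fold change of each tested proteasome gene (strain minus control, on the log2(FPKM + 1) scale) with its 95% interval, coloured by group and filled where called. The 11 purple lid and non-ATPase base genes all lie left of 0, from -0.73 to -0.15, while the 7 orange beta genes lie on both sides of it, from -0.28 to 0.17.

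Members just inside and outside the threshold were close in size. Psmd13, the called member with the highest adjusted p (0.0434), had a log2 fold change of -0.32, and Psmc4, the uncalled member with the lowest (0.0682), had one of -0.29.

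The ATPase ring had 2 lower calls among 6 genes, and all 6 had a negative log2 fold change, from -0.34 to -0.04, of which Psmc3 and Psmc5 turned positive with quantile, median or TPM scaling. Psmc2 was at 72.3, 66.8 and 65.4 FPKM in controls and at 48.8, 51.1 and 62.1 FPKM under strain, a 1.26-fold fall. Psmc6 was at 44.8, 41.7 and 39.8 FPKM in controls and at 34.4, 31.5 and 35.5 FPKM under strain, a 1.25-fold fall, and had the lowest level of the ring. Neither group pair overlapped, but the call of Psmc2 was lost in 8 of 15 alternatives and that of Psmc6 in 5. Psmc3, the most abundant ATPase gene, was at 75.4, 79.8 and 76.8 FPKM in controls and at 71.4, 67.3 and 85.8 FPKM under strain, and these ranges overlapped. Psmc1, Psmc4 and Psmc5 were not called, and their strain means were 63.6, 49.9 and 52.8 FPKM beside control means of 70.9, 61.1 and 54.2 FPKM. Psmc3ip, the gene kept apart, was at 2.41 ± 0.55 and 2.45 ± 0.42 FPKM.

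In the alpha ring, which gates the core, 2 of 7 tested genes were lower. Psma6, the most abundant in controls but below Psma7 and Psma2 under strain, fell 1.27-fold from 109.8, 94.4 and 102 FPKM to 81.9, 73.0 and 85.3 FPKM, without overlap. Psma5 fell 1.32-fold, from 65.9 ± 7.64 to 50.0 ± 6.23 FPKM, although strain replicate 3 (57.1 FPKM) just exceeded control replicate 2 (also 57.1 FPKM to 3 digits). Both calls were lost without control replicate 1 or 3 and without strain replicate 1 or 2. Psma3 had the lowest level of the tested alpha genes, at 24.5, 24.1 and 25.3 FPKM in controls and 23.9, 22.6 and 23.2 FPKM under strain. Its strain values lay below its control values by less than 1.1-fold and it was not called. Psma1, Psma2, Psma4 and Psma7 were not called either, with log2 fold changes from -0.24 to 0.03.

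The beta ring, which holds the cutting sites, had 0 calls among its 7 tested genes. Psmb4, its most abundant member, was at 108, 95.3 and 114 FPKM in controls and at 103, 92.3 and 128 FPKM under strain. The chymotrypsin-like subunit gene Psmb5 was at 57.2, 58.7 and 61.4 FPKM in controls and at 63.9, 57.0 and 80.7 FPKM under strain. Strain replicate 3 carried the highest value of both genes. Psmb6, which encodes the caspase-like subunit, was at 46.1, 43.7 and 41.9 FPKM in controls and at 41.4, 41.5 and 51.9 FPKM under strain. Psmb7, which encodes the trypsin-like subunit, was at 53.2, 54.2 and 52.1 FPKM in controls and at 49.0, 46.4 and 53.2 FPKM under strain. The groups overlapped in all 4 genes.

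The 95% intervals of the log2 fold change were -0.12 to 0.45 for Psmb5, -0.21 to 0.27 for Psmb6 and -0.29 to 0.09 for Psmb7. Falls as large as those of Psmd8 and Psmd3 lie outside these intervals. The interval of Psmb7, which reached -0.2944, does hold the log2 fold change of the called gene Psmd2 (-0.2868). Of the other beta genes, Psmb1, Psmb2 and Psmb3 had log2 fold changes of -0.02, 0.09 and -0.28, and without strain replicate 3 the group had 1 lower call. The 95% interval of Psmb3, from -0.62 to 0.06, holds the log2 fold changes of all lower members except Psmd8 and Psmd3. The unadjusted p was under 0.05 for none of the 7, the lowest being 0.0913 for Psmb3.

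Ratios of group sums within a library do not change when a library is multiplied by a constant factor, as in median or TPM scaling. Quantile normalization can change them, and the ratios given here are of FPKM without it. The lid and non-ATPase base genes summed to 703, 621 and 673 FPKM in controls and to 492, 469 and 557 FPKM under strain, 24.0% lower in the mean. The beta genes summed to 538, 486 and 540 FPKM in controls and to 494, 448 and 606 FPKM under strain, 0.998% lower in the mean. Without strain replicate 3 the strain mean was 0.903 times that of controls for the beta genes and 0.722 times for the lid and non-ATPase base. The ratio of the first sum to the second was 1.31, 1.28 and 1.25 in controls and 0.996, 1.05 and 0.918 under strain, so the groups did not overlap and strain replicate 3 had the lowest ratio. The same ratio for the alpha genes was 0.986, 0.987 and 0.969 in controls and 0.859, 0.929 and 0.809 under strain, again without overlap. For the ATPase genes it was 0.727, 0.753 and 0.675 in controls and 0.633, 0.683 and 0.607 under strain, with overlap. Taken gene by gene, 9 of the 11 lid and non-ATPase base genes had a ratio to the beta sum that was lower in every strain library than in every control. How many of all tested genes would do so was not counted. The beta sum was highest in strain replicate 3, which lowers such a ratio for any gene in that library. The 9 of 11 therefore cannot be read as a trait of this group.

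**Figure D3:**
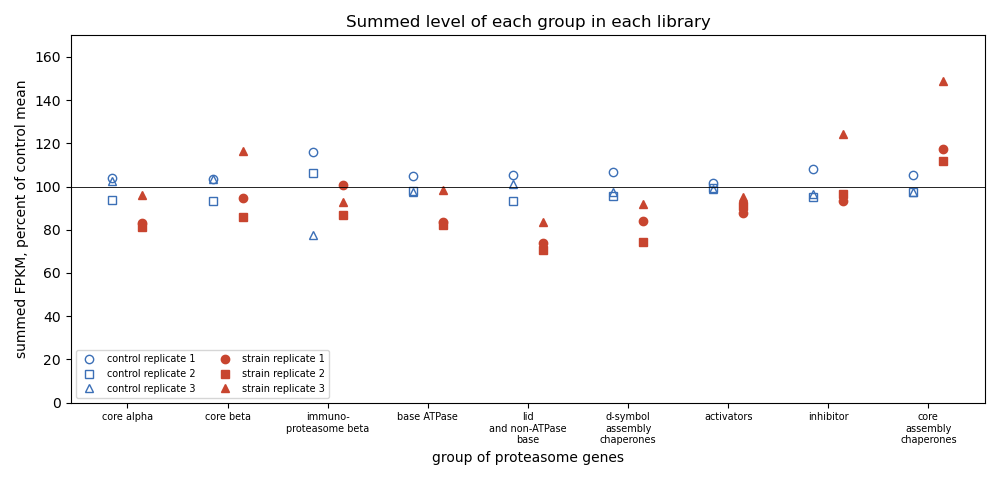
Summed FPKM of each group of proteasome genes in each library, as a percent of the mean of the 3 controls (open blue controls, filled red strain libraries). The lid and non-ATPase base, the d-symbol (base) chaperones and the activators are below all controls in all 3 strain libraries, and the core assembly chaperones are above them. The beta genes straddle the control level, and strain replicate 3 (triangle) is the highest strain library in 8 of the 9 groups shown.

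Psmd5 encodes a chaperone that holds part of the base before it is built in. It fell 1.49-fold, from 19.8, 16.8 and 20.4 FPKM to 12.7, 11.8 and 13.8 FPKM, and every strain library lay below every control (log2 fold change -0.54 ± 0.10 SE, limma adjusted p = 0.00436). The other two base chaperones were not called. Psmd9 was at 16.7, 16.7 and 14.6 FPKM in controls and at 15.5, 14.1 and 19.7 FPKM under strain. Psmd10, which encodes gankyrin, was at 8.12, 6.46 and 5.70 FPKM in controls and at 6.89, 5.19 and 4.85 FPKM under strain. Both had overlapping groups.

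Chaperones that assemble the core were the only members called higher. Psmg1, whose product pairs with that of Psmg2 to seed the alpha ring, rose 1.57-fold, from 8.36, 7.27 and 8.40 FPKM to 10.2, 11.9 and 15.5 FPKM, with strain replicate 3 the highest (log2 fold change 0.57 ± 0.14 SE, limma adjusted p = 0.0135). The partner gene Psmg2 was not called and its groups overlapped, at 6.26, 6.45 and 5.24 FPKM in controls and 5.82, 5.15 and 6.98 FPKM under strain. Psmg4 rose 1.54-fold, from 1.30, 1.09 and 1.36 FPKM to 2.04, 1.94 and 1.81 FPKM, and strain replicate 3 was here the lowest of the strain libraries. That call was lost in 3 of 14 alternatives, those without control replicate 2, strain replicate 1 or strain replicate 2. Psmg3, which encodes the partner of PSMG4, was at 9.05 ± 0.54 and 10.2 ± 1.86 FPKM and was not called. The chaperone gene Pomp, outside the Psm symbols, which helps to place the beta subunits, was at 7.91, 13.5 and 9.98 FPKM in controls and at 9.03, 7.91 and 8.69 FPKM under strain, with no call.

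Genes of the immunoproteasome were low in every library. Psmb8 was at 1.49, 0.724 and 0.852 FPKM in controls and at 1.24, 1.24 and 0.461 FPKM under strain. Psmb9 was at 1.47, 1.095 and 0.701 FPKM in controls and at 1.94, 0.532 and 1.84 FPKM under strain. Psmb10 was at 3.25, 3.86 and 2.60 FPKM in controls and at 2.2, 2.87 and 2.67 FPKM under strain. The groups overlapped for all 3 genes and none was called. The 95% interval of the log2 fold change ran from -0.49 to 0.41 for Psmb8, from -0.39 to 0.75 for Psmb9 and from -0.54 to 0.07 for Psmb10, so changes of moderate size were not detectable. Psmb8 passed the filter with a mean of 1.001 FPKM, barely above the limit of 1.

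Set against the constitutive gene it replaces, Psmb9 was at 3.19%, 2.51% and 1.67% of Psmb6 in controls and at 4.69%, 1.28% and 3.55% under strain. Psmb10 was at 6.11%, 7.13% and 4.99% of Psmb7 in controls and at 4.49%, 6.17% and 5.01% under strain. Psmb8 was at 2.61%, 1.23% and 1.39% of Psmb5 in controls and at 1.94%, 2.17% and 0.57% under strain. Summed, the 3 immunoproteasome genes were at 3.42% ± 0.67 of the 3 constitutive ones in controls and at 3.12% ± 0.41 under strain, a difference smaller than the spread between replicates. FPKM is scaled to length, so these shares compare transcript levels and not protein.

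**Figure D4:**
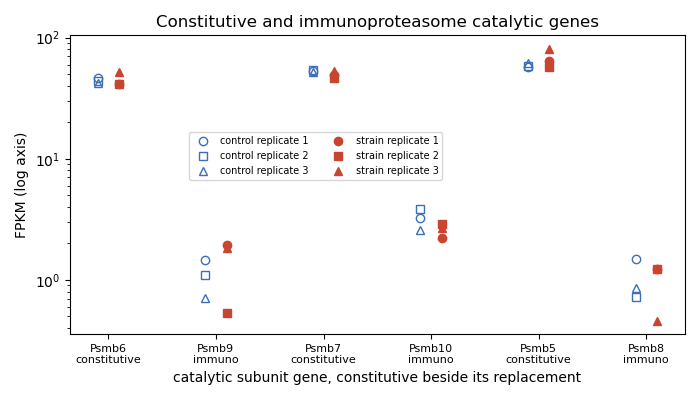
FPKM on a log axis of the 3 constitutive catalytic genes, each beside the immunoproteasome gene that replaces it, with 3 control (open blue) and 3 strain libraries (filled red). The constitutive genes lie between 41.4 and 80.7 FPKM and the immunoproteasome genes between 0.461 and 3.86 FPKM in both groups.

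The activators, caps that open the core without ATP, had 0 calls among 4 genes, with log2 fold changes from -0.18 to -0.08. Psme3, whose product works in the nucleus, had the highest mean over the 6 libraries, with Psme1 close to it and slightly higher in controls. Psme3 was at 31.3, 32.0 and 28.3 FPKM in controls and 27.5, 29.3 and 28.2 FPKM under strain. Psme2, an interferon-induced activator gene, was the least abundant at 16.5, 14.1 and 15.7 FPKM in controls and 13.3, 13.5 and 15.1 FPKM under strain. Its partner gene Psme1 was at 31.0 ± 0.55 and 27.5 ± 3.96 FPKM, and Psme4 at 17.3 ± 0.86 and 16.4 ± 1.57 FPKM. Psmf1, the inhibitor gene, was at 23.1, 20.3 and 20.7 FPKM in controls and at 19.9, 20.6 and 26.5 FPKM under strain. The groups overlapped for all 5 genes. The sums of the 4 activator genes did not overlap, at 96.0, 93.8 and 93.1 FPKM in controls and 82.9, 85.8 and 89.9 FPKM under strain.

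Levels of the structural subunits differed among genes by more than strain moved them. Although each subunit sits in the finished complex in fixed proportion, the 31 tested structural genes ran from 24.6 FPKM (Psma3) to 122 FPKM (Psmd8) in control means, with a median of 65.0 FPKM. Under strain they ran from 23.2 FPKM (Psma3) to 108 FPKM (Psmb4), with a median of 52.8 FPKM. The coefficient of variation across the 31 genes was 32.9% to 35.0% in the 3 controls and 33.7% to 38.1% in the 3 strain libraries. Of the 49 members, 19 have pseudogenes or like-named genes in the GRCr8 gene table, 52 in all, and none of these has a row of its own in the files. How reads shared with such copies were counted is not given, which leaves the levels of those genes uncertain. They include 7 of the 14 called members: Psma5, Psma6, Psmc6, Psmd1, Psmd8, Psmd14 and Psmg4.

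Proteins that work with the proteasome but carry other symbols were listed separately, and of 15 tested 8 were lower and 0 higher, with a median log2 fold change of -0.28. Over all tested genes 19.0% were lower and 16.4% higher, with a median of -0.01. The list was written with earlier results known, so its count is a description only. Adrm1, which encodes a ubiquitin receptor of the base, fell 1.45-fold from 74.2, 65.8 and 70.1 FPKM to 46.9, 41.4 and 56.8 FPKM. Zfand5, which encodes a proteasome-binding zinc finger protein, fell 1.62-fold to 25.6 ± 4.66 FPKM, and its stress-induced relative Zfand2a fell 3.50-fold, from 46.4, 29.6 and 46.5 FPKM to 13.8, 9.92 and 11.2 FPKM. Akirin2, whose product carries proteasomes into the nucleus, fell 1.51-fold from 30.7 ± 2.65 to 20.4 ± 0.59 FPKM. The other 4 lower genes were Uchl5, Ubqln1, Ubqln2 and Ube3a, whose calls were each lost in at least 1 alternative. The lid subunit gene listed as Shfm1 was at 51.9 ± 3.42 and 49.5 ± 3.0 FPKM and was not called, and Ube3c was listed at 0 in every library.

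Proteasome genes are known targets of the transcription factor NFE2L1, which is made on the endoplasmic reticulum, extracted by VCP, stripped of sugars by NGLY1 and cut by DDI2, and which binds DNA with small MAF proteins. Of 12 tested genes of this route and of its relative NFE2L2, 8 were lower and 0 higher, with a median log2 fold change of -0.47. The shares over all tested genes were 19.0% lower and 16.4% higher, with a median of -0.01. This list too was written with earlier results known. Nfe2l1 itself was not called, at 84.7, 88.9 and 74.4 FPKM in controls and 86.7, 87.1 and 90.6 FPKM under strain. Nfe2l2 fell 1.89-fold, from 87.7, 89.2 and 76.3 FPKM to 45.5, 43.7 and 44.9 FPKM, without overlap. The small MAF genes fell together: Maff 3.56-fold to 21.2 ± 4.94 FPKM, Mafg 1.93-fold to 13.5 ± 0.61 FPKM and Mafk 1.76-fold to 9.57 ± 0.81 FPKM. Vcp fell 1.36-fold, from 173, 154 and 177 FPKM to 124, 115 and 133 FPKM, and its cofactor genes Nploc4 and Ufd1l and the repressor gene Bach1 were the other lower ones. The call of Ufd1l was lost in 7 of 15 alternatives, 4 of them fits without a library. Ngly1, Ddi2 and Syvn1 were not called. Whether these genes have a part in the levels of the proteasome genes was not tested.

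Of the 4 tested ubiquitin and E1 genes reported here 0 were called by limma, and 1, Rps27a, had an unadjusted p under 0.05 (0.0392). Calls in either direction made up 35.4% of all tested genes. The polyubiquitin gene Ubb was at 217 ± 6.35 and 208 ± 25.6 FPKM. Rps27a, which makes ubiquitin together with a ribosomal protein, was at 174 ± 8.60 and 214 ± 31.4 FPKM. The ubiquitin-activating enzyme genes were at 47.7 ± 1.35 and 48.3 ± 3.07 FPKM (Uba1) and at 7.13 ± 0.83 and 6.41 ± 1.39 FPKM (Uba6).

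Genes that load the peptides of the proteasome onto MHC class I, with their regulators, had 2 higher and 3 lower calls among the 11 reported here. Among all tested genes 16.4% were higher and 19.0% lower. The interferon pathway gene Irf9 rose 1.78-fold to 3.44 ± 0.27 FPKM. Irf1, a direct activator of immunoproteasome genes, fell 2.96-fold, from 9.85, 7.12 and 5.58 FPKM to 2.52, 2.35 and 2.76 FPKM. Tapbp, the gene of the loading factor tapasin, fell 1.88-fold to 17.1 ± 1.45 FPKM, and B2m, the light chain of the class I molecule, fell 1.45-fold to 138 ± 12 FPKM. Tapbpl, a relative of Tapbp, rose 1.40-fold to 10.5 ± 1.37 FPKM, a call lost without control replicate 1 or control replicate 3. Tap1, which encodes a subunit of the peptide transporter, was at 6.18 ± 0.38 and 5.82 ± 0.79 FPKM and was not called.

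**Figure D5:**
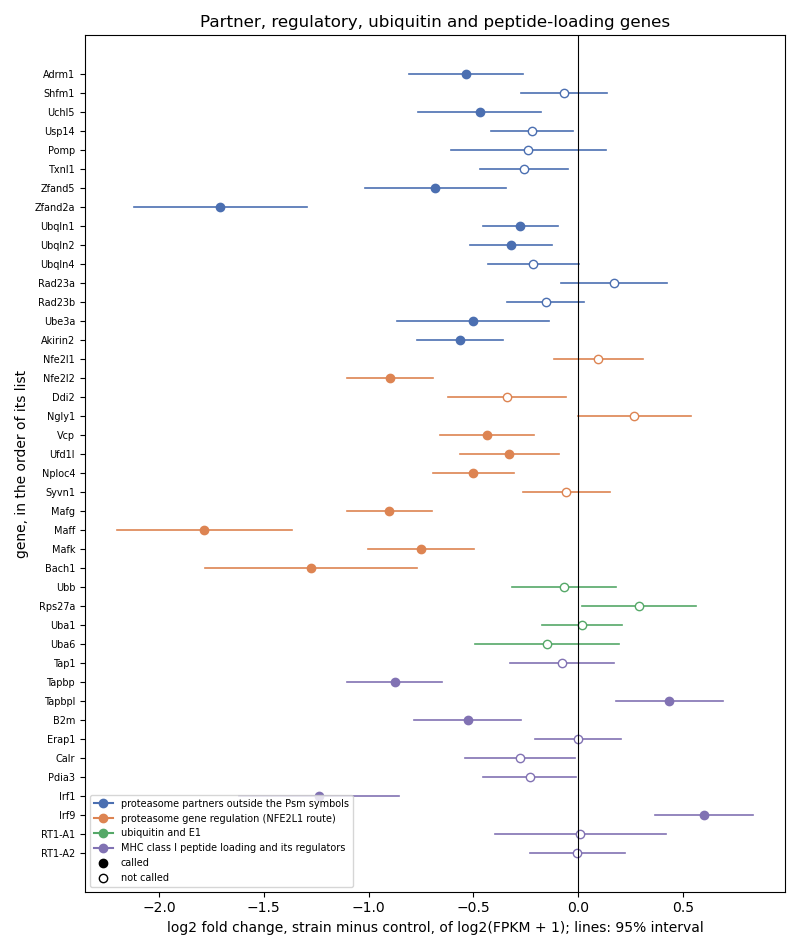
Log2 fold change (strain minus control, log2(FPKM + 1) scale) with 95% intervals of tested genes in the partner, regulatory, ubiquitin and peptide-loading lists, filled where called. Maff (-1.78) and Zfand2a (-1.71) lie farthest to the left, Nfe2l1 (0.10) lies near 0, and Irf9 (0.60) lies farthest to the right.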

How the data were processed

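The authors deposited 1 table per library with 1 FPKM value per gene symbol (22601 rows). The unit is taken from the values and from Cufflinks and Cuffdiff 2.2.1, named with cutadapt 1.9.3, HISAT2 2.0.4 and DESeq in the submitters' processing notes without role or order. The only build named there is hg19, although the symbols are rat ones. Strandedness and multi-read counting are not given in the sources used here.

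Rows whose symbol had become a calendar date (27) and 1 malformed row were left out. The 10180 genes averaging 1 FPKM or more were fitted on log2(FPKM + 1) with limma 3.58.1 in R 4.3.3 (trend, robust, no block), two-sided, with Benjamini-Hochberg adjustment over all tested genes. Log2 fold changes understate the change of low genes. Folds without log are ratios of group means. On simulated data with 200 genes changed by 1 log2 unit, 86.5% were recovered and 3.88% of the calls were false. Changes of the members were smaller, from -0.73 to 0.57, and 3608 genes were called in the data. The recovery rate therefore does not apply to the members.

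The members and lists were chosen with earlier results of these data known. Per-library values are given for called members without overlap, for Psmb5 to Psmb10, and for the highest and lowest member of each group. Of the other lists the 4 called genes with the smallest p are named. Nfe2l1, Vcp, Tap1 and the other genes of those lists, and the 6 promoters shown, were picked after their values were seen. Some genes of the lists are not reported here.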

Additional observations from a re-analysis of the deposited data

How the results depend on the processing

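In 15 alternative fits the members' median log2 fold change stayed negative, from -0.21 to -0.08. Called members (14; 12 lower, 2 higher) numbered 9 without a filter and 9 with median scaling (7 lower in each), and with a filter at 5 FPKM 1 was higher, since Psmg4 was no longer tested. Leaving out each library gave 6 to 22 called, 5 to 20 lower and 1 to 2 higher. The lower share of tested members was below that of all genes without control replicate 1 or 3 or strain replicate 1 or 2, and with median scaling (14.9% against 16.3%), and above it in the other 10 alternatives. Over all genes (3608 called, 1672 higher) this gave 2363 to 3572 called and 1060 to 1510 higher, and the filter at 5 FPKM, which tests fewer genes, gave 1071 higher. With every library scaled to the same sum (TPM), 2067 genes were higher and 1537 lower, against 1672 and 1936, while 12 members stayed lower and 2 higher by count. The immunoproteasome share differed by -0.305 percentage points (-0.681 to -0.032 with a library left out). With a library left out, the log2 fold change of uncalled Psmb6 ran from -0.0783 to 0.0804, turning sign without control replicate 3 or strain replicate 3. Psmb8 fell under the filter without control replicate 1, strain replicate 1 or strain replicate 2. In the other fits that leave out a library its log2 fold change ran from -0.1471 to 0.1636, turning without strain replicate 3.

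With the replicate block 10 members were called (8 lower), and Psmc2, Psmc6, Psmd2 and Psmd13 lost their calls. Deviations from the group means correlated weakly between same-numbered libraries (r = 0.0325, 0.108 and -0.116), beside -0.21 to 0.12 for differently numbered ones. Deviations from means of 3 libraries cannot decide whether the numbers pair the samples. The causes of these changes were not tested, and unknown depth limits what the low immunoproteasome genes can show.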
